A study of Mus musculus with 8 samples.

Results

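Fatty acid oxidation is described here through 30 genes of mitochondria and peroxisomes, taken by symbol from a list of the pathway: the enzymes that activate fatty acids and pass them through the carnitine shuttle, the enzymes of the mitochondrial spiral, those that handle double bonds, the electron transfer proteins, the peroxisomal enzymes, and Acot2 and Pdk4. All 30 symbols were among the 23212 in the deposited count tables, and all 30 were among the 14493 genes with enough counts to be tested. The tissue was whole perigonadal fat of C57BL/6 mice. The knockout group was 4 mice with an adipocyte-specific gene knockout, and the wild-type group was 4 mice matched to them for age and weight. All mice were 20 weeks old and had eaten a 45% fat diet for 12 weeks from 8 weeks of age, so no group on another diet is included. The sources used here give neither the driver of the knockout nor the sex of the mice.

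Fatty acids become usable as fuel once they are joined to coenzyme A. Long-chain acyl groups then cross into mitochondria as carnitine esters, and a repeating set of 4 reactions (dehydrogenation, hydration, a second dehydrogenation and thiolysis) removes acetyl-CoA each time. Peroxisomes run a parallel set of reactions on very long and branched chains. White adipocytes store and release fatty acids and oxidise only a small part of them, and many of these genes are textbook targets of the PPAR nuclear receptors.

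No fatty acid oxidation gene differed between knockout and wild-type fat beyond the spread between mice. In edgeR's quasi-likelihood test 0 of 30 passed an adjusted p of 0.05, and 0 had an unadjusted p under 0.05; DESeq2 and limma voom also called 0. Over all genes tested, 0.0138% passed the adjusted threshold, 2 genes, both lower in knockout, and 2.23% had an unadjusted p under 0.05. The fold changes ranged from 0.854 for Acot2 to 1.17 for Acadl and Acaa1b, and every adjusted p was 1. The 95% intervals of all genes but Pdk4, the least precise, lay between -0.81 and 0.73 on the log2 scale. The groups overlapped in 30 of 30 genes, while 1.44% of all tested genes had groups that did not overlap, 0.621% with knockout higher and 0.821% with knockout lower. A p above the threshold does not show that the levels were equal: for the 9 genes of the mitochondrial spiral the intervals left room for up to 1.52-fold more in knockout, the upper bound for Acadl.

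**Figure D1:**
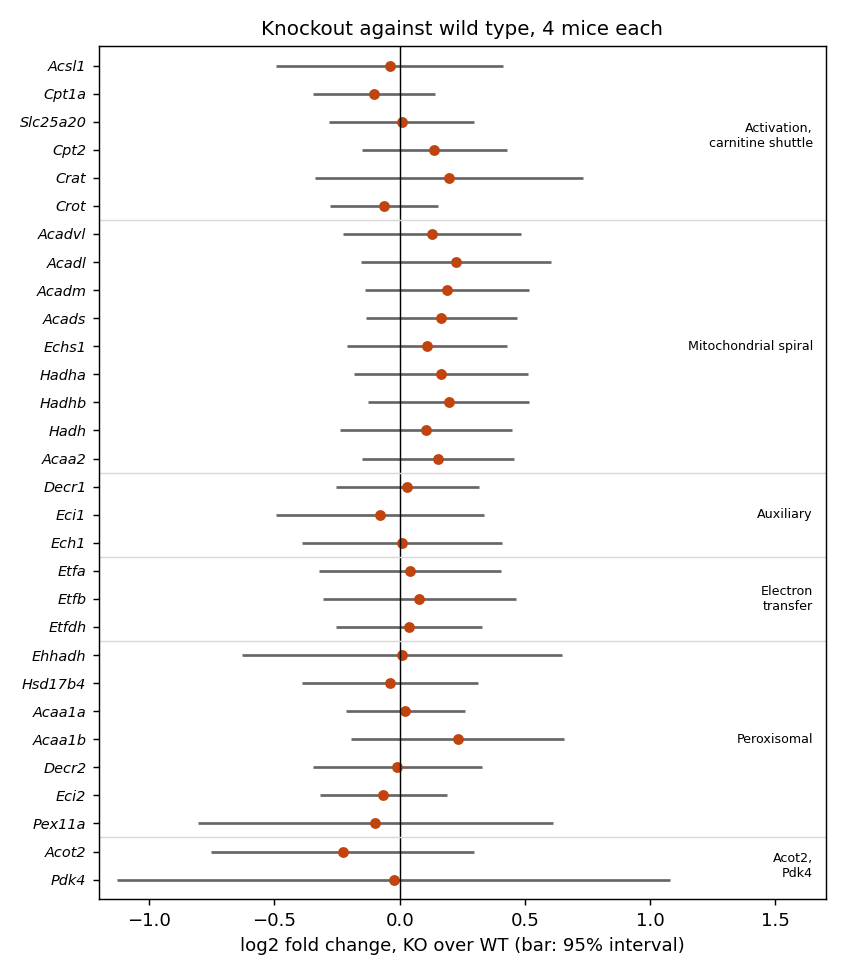
Log2 fold change of each gene, knockout (KO) over wild type (WT), with its 95% interval from the edgeR quasi-likelihood fit, grouped by role from top to bottom. Every interval crosses 0, and the 9 mitochondrial spiral genes all have estimates above 0, between 0.10 and 0.23.

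The libraries held 46444435 to 51431956 counts, and the least counted value of any of the 30 genes was 478 counts, for Pex11a, so none of these genes was near the detection limit. All 10 adipocyte markers were detected, and their summed level was 31640 to 43140 CPM (counts scaled to library size by TMM, written CPM) in knockout and 32820 to 45440 CPM in wild type. Macrophage markers summed to 683 to 2714 CPM in knockout and 489.5 to 1590 CPM in wild type. Foxj1, which defines ciliated cells, was at 26.1 CPM in knockout mouse 2 and 7.97 CPM in wild-type mouse 3, and at 0.287 CPM or less in the other 6 mice, and Epcam, Cuzd1, Cdh1, Dnahc5 and Tekt1 were likewise highest in those mice. The keratins Krt8 and Krt18 of the same list did not follow that split in full. Krt8 was at 2.17 to 24.04 CPM in knockout and 1.93 to 29.5 CPM in wild type, highest of all in wild-type mouse 2. Krt18 was highest of all in knockout mouse 2, at 35.5 CPM. It was at 17.4 and 24.5 CPM in wild-type mice 1 and 2, against 16.8 CPM in wild-type mouse 3. The 8 markers summed to 32.5, 175.7, 6.23 and 21.96 CPM in knockout mice 1 to 4, against 33.01, 57.8, 63.3 and 7.06 CPM in wild-type mice 1 to 4. Because the tissue was whole, fewer adipocytes and less RNA per adipocyte cannot be told apart.

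The level per length, in CPM per kilobase of merged exon, spanned from 588 for Ech1 to 6.35 for Acot2 over the 8 libraries. Ech1, a dienoyl-CoA isomerase that rearranges double bonds, and Acsl1, the main long-chain acyl-CoA synthetase of adipocytes, led the list, followed by Etfb, the beta subunit of the electron transfer flavoprotein, and Hadh, which oxidises hydroxyacyl-CoA. These 4 genes together made up 42.8% to 45.3% of the summed level per length of all 30 genes in every library. At the low end stood Pex11a and Ehhadh, at 17.9 and 18.1, and Decr2 at 13.6 CPM per kilobase. Of this pool, Ech1 took 13.5% ± 1.15 in knockout and 14.1% ± 1.37 in wild type, and Acsl1 took 12.2% ± 1.22 in knockout and 13.1% ± 1.28 in wild type (SD, n = 4 each).

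**Figure D2:**
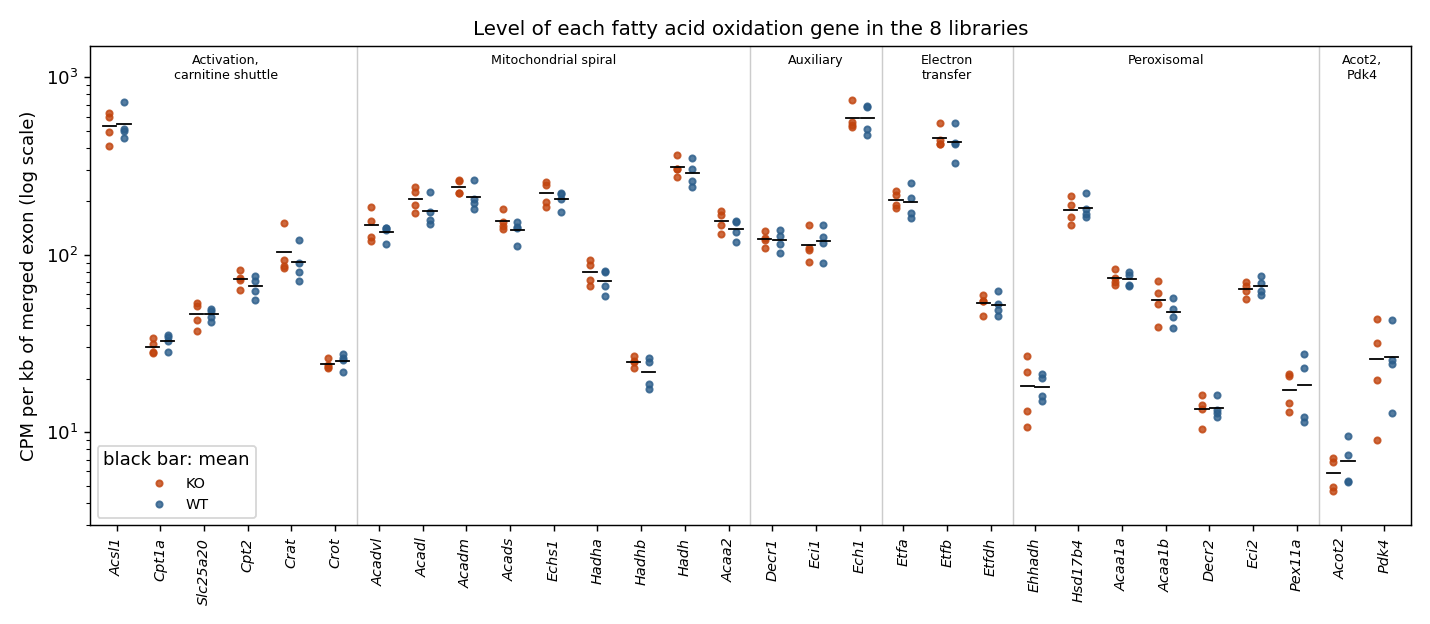
Level of each gene in every library, as CPM per kilobase of merged exon on a log axis, with knockout left of wild type and black bars at the means. Ech1, Acsl1 and Etfb stand at the top, Acot2 at the bottom, and the points of both genotypes overlap for every gene.

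Some of these levels rest on sequence that other genes share, which matters when genes are set against each other. Of the 50-base windows of the longest coding transcript, 62.4% in Hadhb and 67.3% in Etfb also occur in a transcript of another gene, mostly Gm13910 for Hadhb and Gm45233 for Etfb. The share was 46.2% for Acaa1b, 35.1% for Acaa1a, 27.7% for Acot2, mostly shared with Acot1, and 24% for Acadvl, shared with Dvl2; in the other 24 genes it was 11.3% or less. Windows were matched on either strand, and copies elsewhere were not told apart from transcripts that overlap at the same place. The sources used here do not say how reads that match several places were counted. The levels of these 6 genes are therefore uncertain as far as their shared windows are copies elsewhere. The part of the shared windows in any difference was not tested.

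The peroxisomal thiolases show how close such copies can be. Acaa1a (chromosome 9, 119341294 to 119350295) and Acaa1b (chromosome 9, 119148043 to 119157093, on the opposite strand) both encode the enzyme that closes the peroxisomal cycle in mice. Their coding sequences, each of 1275 bases, are identical at 1231 positions, or 96.5%, with the longest identical run reaching 327 bases. The stretch from coding base 259 to 318 holds 11 of the differences, shown in capitals, and reads over it can tell the genes apart (coding strand, GENCODE vM21 on GRCm38).
Acaa1a: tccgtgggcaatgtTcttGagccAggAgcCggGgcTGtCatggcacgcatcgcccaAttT
Acaa1b: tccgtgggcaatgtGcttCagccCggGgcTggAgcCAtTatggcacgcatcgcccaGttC

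Acaa1a was at 130.2, 146.8, 118.7 and 123.6 CPM in knockout mice 1 to 4, against 117.8, 134.9, 118.6 and 140.3 CPM in wild-type mice 1 to 4. Acaa1b was at 118, 65.6, 100.9 and 87.5 CPM in knockout, against 95.5, 64.7, 74.1 and 82.4 CPM in wild type. Mouse 2 of each genotype was the lowest for Acaa1b, while for Acaa1a the same knockout mouse was the highest of its group. The ratio of Acaa1b to Acaa1a per length was 0.766 ± 0.216 in knockout and 0.659 ± 0.145 in wild type (SD, n = 4 each), and it ran from 0.470 to 0.954 over the mice. Acaa1b had the largest estimate of the peroxisomal genes, a log2 fold change of 0.23 (SE 0.188, 95% interval -0.19 to 0.66), and without knockout mouse 2 it reached 0.36 with an unadjusted p of 0.0448 in edgeR, where the smallest adjusted p of any of the 30 genes was 0.996.

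Activation and the carnitine shuttle gave estimates on both sides of 0. Acsl1 (chromosome 8, 46471042 to 46536050) was at 2316, 1913, 2439 and 1600 CPM in knockout mice 1 to 4, against 2816, 1936, 1773 and 1979 CPM in wild-type mice 1 to 4. Wild-type mouse 1 stood highest and knockout mouse 4 lowest, and the means of 2067 ± 384 CPM in knockout and 2126 ± 469 CPM in wild type (SD, n = 4 each) differed by less than either spread. Cpt1a, the outer membrane carnitine palmitoyltransferase that malonyl-CoA inhibits and that sets the pace of entry, was at 145, 135, 121 and 120.2 CPM in knockout, against 139.8, 153, 147 and 121 CPM in wild type. The wild-type values were higher on average, but wild-type mouse 4 matched the lowest knockout mice, and the log2 fold change was -0.10 (SE 0.108). The muscle isoform Cpt1b was not tested, at 0.0584 CPM or less in every library, and the third isoform, Cpt1c, averaged 5.54 ± 0.834 CPM in knockout and 4.29 ± 1.01 CPM in wild type (SD, n = 4 each).

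Farther along the shuttle, Slc25a20, the carnitine-acylcarnitine translocase of the inner membrane, averaged 82.5 ± 13.6 CPM in knockout and 82.1 ± 5.92 CPM in wild type, and Cpt2, which returns the acyl group to coenzyme A, averaged 171 ± 18.5 CPM in knockout and 156 ± 21.3 CPM in wild type (SD, n = 4 each). Per length, Cpt1a stood at 0.419 ± 0.0544 of Cpt2 in knockout and 0.502 ± 0.106 in wild type. Crat, which makes acetylcarnitine, reached 664 CPM in knockout mouse 3 and 534 CPM in wild-type mouse 1, and lay at 370.1 to 411 CPM in the other knockout mice and 312 to 394 CPM in the other wild-type mice. Its log2 fold change of 0.195 turned to -0.045 without knockout mouse 3. Crot, the peroxisomal carnitine octanoyltransferase, was at 65.2, 73.8, 67.1 and 64.7 CPM in knockout mice 1 to 4, against 72.9, 77.1, 60.96 and 71.9 CPM in wild-type mice 1 to 4. Mouse 2 of each genotype was the highest for Crot.

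The 9 genes of the mitochondrial spiral all had a log2 fold change above 0, with a median of 0.165, beside a median of 0.011 and 53.1% above 0 over all genes tested. None passed, and the estimates were small next to their intervals, of which the lowest bound was -0.24 and the highest 0.61. The median was 0.081 without wild-type mouse 3, the lowest mouse for 7 of these genes. Without that mouse and knockout mouse 2, the pair with the most Foxj1, the median was again 0.081 and 6 of 9 stayed above 0. These genes share mice and were listed with earlier results of these data known, so the common direction has no test here.

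Among the acyl-CoA dehydrogenases, which start each round on chains of a given length, Acadl (long chains) was at 454, 358, 425 and 324 CPM in knockout mice 1 to 4, against 429, 282, 297 and 327 CPM in wild-type mice 1 to 4. Acadm (medium chains) was at 487, 408, 478 and 409 CPM in knockout, against 489, 359.5, 332 and 382 CPM in wild type. Wild-type mouse 1 was the second highest of the 8 for Acadl and the highest for Acadm, and the lowest of the 8 were wild-type mouse 2 for Acadl and wild-type mouse 3 for Acadm. Their log2 fold changes of 0.23 (SE 0.168) and 0.19 (SE 0.145) were 0.37 and 0.32 without wild-type mouse 1, where the unadjusted p in edgeR was 0.0402 for Acadl and 0.0378 for Acadm and the smallest adjusted p of any of the 30 genes was 1. Acads (short chains) was at 265, 282, 330.5 and 255 CPM in knockout, against 282, 260.5, 204 and 262.5 CPM in wild type. Acadvl (very long chains) had its lowest level, 247 CPM, in wild-type mouse 3 and its highest, 399 CPM, in knockout mouse 2.

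The trifunctional protein carries out the last 3 steps on long chains, with the alpha subunit encoded by Hadha and the beta subunit, its thiolase, by Hadhb. The genes lie head to head on chromosome 5, Hadha from 30118304 to 30154980 on the minus strand and Hadhb from 30155322 to 30184583 on the plus strand, with 341 bases between them in the deposited annotation. The 250 bases before the RefSeq start of Hadhb, with 58.8% G and C, are shown on the plus strand (RefSeq, GRCm38.p6, chr5:30155003-30155252).
Hadha-Hadhb: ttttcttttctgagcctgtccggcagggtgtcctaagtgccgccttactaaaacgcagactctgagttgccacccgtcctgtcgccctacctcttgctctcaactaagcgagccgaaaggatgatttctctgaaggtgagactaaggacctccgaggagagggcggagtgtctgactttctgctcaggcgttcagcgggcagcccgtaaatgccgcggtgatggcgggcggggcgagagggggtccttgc

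Hadha was at 276, 359.9, 334 and 257 CPM in knockout mice 1 to 4, against 309, 305, 224 and 255 CPM in wild-type mice 1 to 4. Hadhb was at 52.7, 48.2, 48.99 and 45.02 CPM in knockout, against 51.1, 48.7, 34.1 and 36.4 CPM in wild type. Wild-type mice 3 and 4 were the lowest of the 8 for both genes, and the remaining wild-type mice lay within the knockout range. Hadhb had the smallest p of the 30 genes, an unadjusted 0.204 in edgeR, with a log2 fold change of 0.195 (SE 0.142). The ratio of Hadhb to Hadha per length was 0.318 ± 0.051 in knockout and 0.305 ± 0.019 in wild type (SD, n = 4 each), lying between 0.264 and 0.375 in every mouse, for a protein that holds both subunits in equal number; Hadhb is also the gene with the 62.4% of shared windows given above.

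The remaining spiral genes act on shorter chains. Echs1, the short-chain hydratase, averaged 331 ± 51 CPM in knockout and 307 ± 34.4 CPM in wild type. Hadh was at 521.3, 521.7, 627 and 474 CPM in knockout mice 1 to 4, against 606, 448, 415 and 525.5 CPM in wild-type mice 1 to 4. Acaa2, the mitochondrial thiolase, was at 263, 195, 251.5 and 221 CPM in knockout, against 228, 177, 200.4 and 233 CPM in wild type. Knockout mouse 3 and wild-type mouse 1 stood highest for Hadh, and mouse 2 of each genotype was lowest for Acaa2.

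The auxiliary enzymes let unsaturated chains through the spiral, and the 3 estimates lay between -0.077 and 0.03 on the log2 scale. Ech1 was at 633, 608, 845 and 597.5 CPM in knockout mice 1 to 4, against 779, 578.5, 538 and 772 CPM in wild-type mice 1 to 4, a log2 fold change of 0.009 (SE 0.177). Eci1, an enoyl-CoA isomerase, was at 115, 119, 159.8 and 99.5 CPM in knockout, against 159.7, 126, 97.9 and 136 CPM in wild type. Knockout mouse 3 and wild-type mouse 1 were the highest of their groups for both genes. Decr1, the mitochondrial dienoyl-CoA reductase, averaged 363 ± 31.6 CPM in knockout and 356 ± 45.9 CPM in wild type (SD, n = 4 each).

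Electrons from the acyl-CoA dehydrogenases pass to the electron transfer flavoprotein, made of the products of Etfa and Etfb, and then to the ubiquinone reductase encoded by Etfdh. Etfb was at 341, 447, 359.8 and 341 CPM in knockout mice 1 to 4, against 346.5, 451.5, 269 and 342.5 CPM in wild-type mice 1 to 4. Etfa averaged 299 ± 31 CPM in knockout and 291 ± 62.2 CPM in wild type, and Etfdh averaged 122 ± 13.7 CPM in knockout and 119 ± 16.8 CPM in wild type (SD, n = 4 each). Mouse 2 of each genotype had the most Etfb, and the ratio of Etfb to Etfa per length was 3.01 and 3.24 in these mice and between 1.67 and 2.18 in the other 6.

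In peroxisomes, Hsd17b4 and Ehhadh encode bifunctional enzymes with opposite stereochemistry. Hsd17b4 was abundant at 480.1 ± 77.7 CPM in knockout and 493 ± 72.1 CPM in wild type (SD, n = 4 each). Ehhadh, a classical PPAR alpha target in rodent liver, was at 39.5, 81, 65.7 and 32.3 CPM in knockout mice 1 to 4, against 47.9, 63.7, 44.9 and 60.6 CPM in wild-type mice 1 to 4. The knockout mice spread over a wider range than the wild-type mice, with a coefficient of variation of 41.5% in knockout and 17.1% in wild type, and the means of 54.6 and 54.3 CPM differed by less than either spread. Without knockout mouse 2 and wild-type mouse 3 the log2 fold change of Ehhadh was -0.325, against 0.009 with all mice, and it passed in neither. Wild-type mouse 2, whose sum over the 8 epithelial markers was close to that of wild-type mouse 3, stayed in. Most of its sum of 57.8 CPM was Krt8 at 29.5 CPM and Krt18 at 24.5 CPM. Its Foxj1 was at 0.0588 CPM, against 7.97 CPM in wild-type mouse 3. The part of the epithelial markers in this was not tested.

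Of the other peroxisomal genes, Decr2, the peroxisomal dienoyl-CoA reductase, averaged 27.8 ± 4.91 CPM in knockout and 28.0 ± 3.65 CPM in wild type (SD, n = 4 each). Eci2, an enoyl-CoA isomerase of peroxisomes and mitochondria, was at 99.9, 107, 113 and 90.1 CPM in knockout mice 1 to 4, against 111, 100.9, 95.4 and 122.5 CPM in wild-type mice 1 to 4. Pex11a, a membrane protein that promotes the multiplication of peroxisomes, was at 12.8, 18.7, 18.1 and 11.4 CPM in knockout, against 20.3, 24.1, 10.8 and 10.01 CPM in wild type. Wild-type mice 1 and 2 were the highest of the 8 and wild-type mice 3 and 4 the lowest, and the log2 fold change was -0.097 (SE 0.312). The 7 peroxisomal genes had 3 estimates above 0 and 4 below, with a median of -0.01.

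Pdk4 and Acot2 bear on fuel choice and on the pool of coenzyme A. Pdk4 (chromosome 6, 5483351 to 5496278) encodes a kinase that switches off pyruvate dehydrogenase when fatty acids are burned, and it was the most variable of the 30 genes. It was at 109.8, 31.1, 149.3 and 67.5 CPM in knockout mice 1 to 4, against 148.7, 44.2, 87.7 and 83.2 CPM in wild-type mice 1 to 4. Mouse 2 was the lowest of each genotype, the highest mice of the groups were almost level, and the coefficients of variation were 57.3% in knockout and 47.4% in wild type. The means of 89.4 ± 51.3 CPM in knockout and 91.0 ± 43.2 CPM in wild type (SD, n = 4 each) gave a fold change of 0.983 whose 95% interval ran from 0.458 to 2.11, the widest interval of the 30.

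Acot2, a mitochondrial thioesterase that frees coenzyme A, was the least expressed per length. It was at 10.8, 15.6, 14.8 and 10.2 CPM in knockout mice 1 to 4, against 16.2, 11.7, 11.5 and 20.9 CPM in wild-type mice 1 to 4. Its log2 fold change of -0.23 (SE 0.231) was the lowest of the 30, and it was -0.023 without wild-type mouse 4, the highest of the 8. Its near copy Acot1 was at 4.59 CPM in knockout mouse 2, at 1.58 CPM in wild-type mouse 3 and at 0.796 CPM or less in every other mouse.

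**Figure D3:**
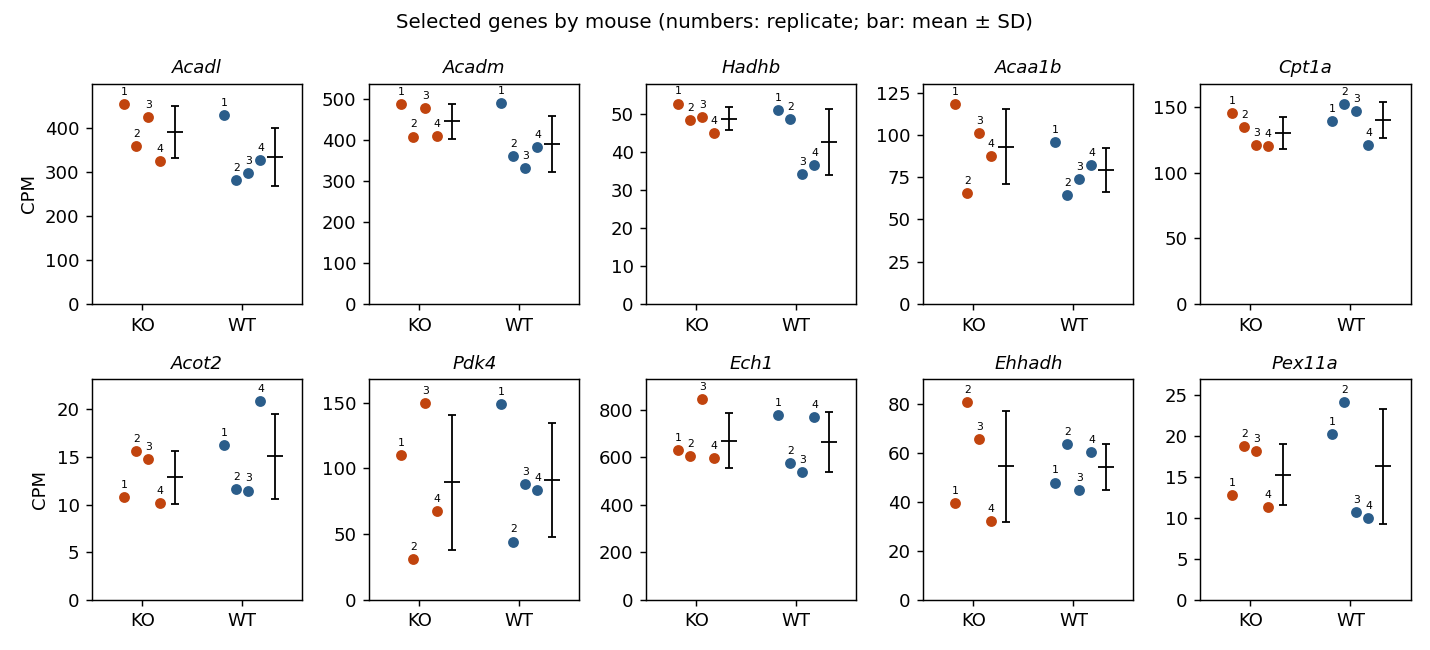
Level in CPM of 10 of the 30 genes, with a point for each mouse marked by its replicate number, knockout left of wild type, and bars for the mean ± SD of 4 mice. The groups overlap in each panel, and mouse 2 of each genotype is the lowest for Pdk4 and for Acaa1b.

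The genes differed together between mice within each genotype. Knockout mouse 3 was above the gene's own mean over the 8 libraries in 27 of 30 genes and wild-type mouse 1 in 26 of 30, whereas wild-type mouse 3 was above it in 2 of 30 and knockout mouse 4 in 3 of 30. The median distance from that mean was 0.23 in knockout mouse 3 and -0.14 in knockout mouse 4, and it was 0.18 in wild-type mouse 1 and -0.26 in wild-type mouse 3, on the log2 scale. The other 4 mice lay between -0.039 and 0.042. Wild-type mouse 3 had the lowest value of the 8 in 16 of 30 genes, and knockout mouse 3 the highest in 9 of 30. Each genotype held a mouse that was high and a mouse that was low in nearly the whole pathway.

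The summed levels of cell type markers differed between these mice as well. Adipocyte markers summed to 43140 CPM in knockout mouse 3 and 45440 CPM in wild-type mouse 1, the highest of each group, and to 35770 CPM in knockout mouse 4 and 32820 CPM in wild-type mouse 3. Fabp4 was the largest part of these sums, at 18000 CPM in knockout mouse 3 and 20710 CPM in wild-type mouse 1. Lep and Retn of the same list went the other way, and the other listed adipocyte markers did not. Lep was at 2567 CPM in knockout mouse 3 against 3669 CPM in knockout mouse 4. It was at 3377 CPM in wild-type mouse 1 against 3802 CPM in wild-type mouse 3. Macrophage markers summed to 812 CPM in knockout mouse 3 and 489.5 CPM in wild-type mouse 1, against 2714 CPM in knockout mouse 4 and 1590 CPM in wild-type mouse 3, the highest of their groups. Knockout mouse 2 had the lowest adipocyte sum of all, 31640 CPM, with a median distance of 0.017 for the oxidation genes. The part of tissue makeup in the order of the mice was not tested.

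The 8 listed markers of brown and beige adipocytes summed to 22.1 to 36.5 CPM in knockout and 17.2 to 23.7 CPM in wild type, and 3 of them were under 1 CPM in every mouse. Ucp1, which uncouples respiration, was at 0.139, 0.473, 0.211 and 0.205 CPM in knockout mice 1 to 4, against 0.0413, 0.0196, 0.0779 and 0 CPM in wild-type mice 1 to 4, counts too few to enter the test. Cox8b, a subunit of cytochrome c oxidase, was at 15.3, 15.6, 9.22 and 11.8 CPM in knockout, against 7.92, 7.71, 7.40 and 9.03 CPM in wild type. Cox7a1, another subunit of that enzyme, was at 8.93, 6.17, 4.74 and 6.22 CPM in knockout, against 4.64, 4.53, 4.35 and 3.75 CPM in wild type. In these 3 genes every knockout mouse was above every wild-type mouse. The same held for 0.621% of all tested genes, a share that covers Cox8b and Cox7a1 but not the untested Ucp1. The log2 fold change was 0.69 for Cox8b (SE 0.181, unadjusted p 0.00409 in edgeR) and 0.59 for Cox7a1 (SE 0.209, unadjusted p 0.0193 in edgeR), and neither passed, with an adjusted p of 1 for both. Cidea, Dio2, Elovl3, Cpt1b and Ppargc1a of the same list had groups that overlapped. The part of these cells in the oxidation genes was not tested.

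**Figure D4:**
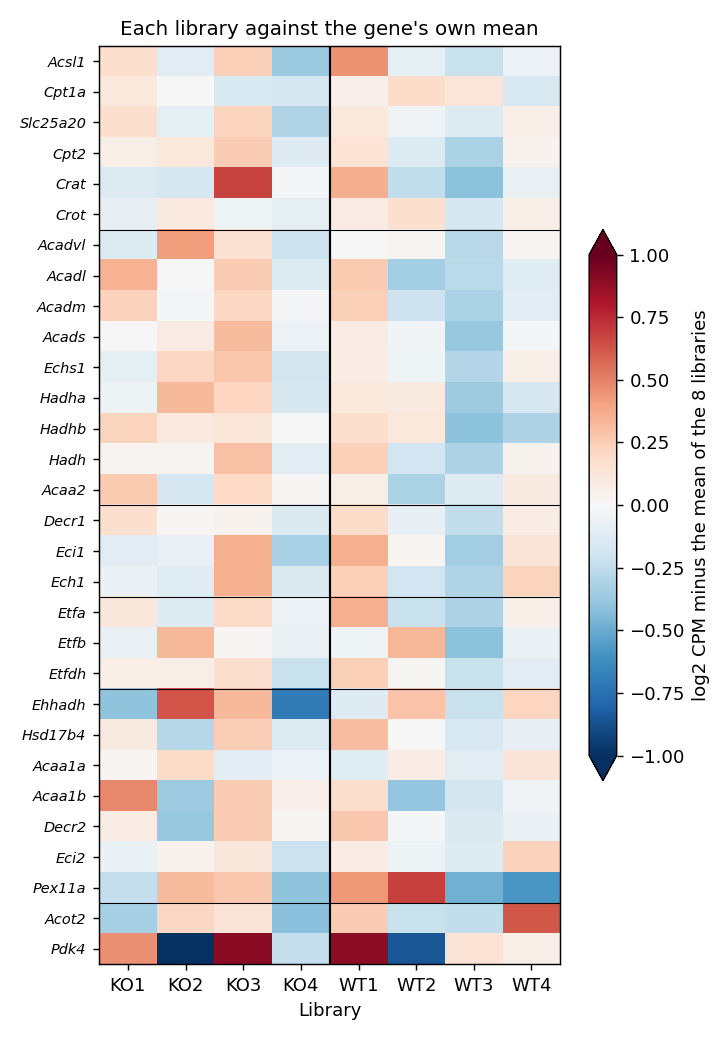
Each gene's log2 CPM in each library minus its mean over the 8 libraries, with knockout mice left of the line and wild-type mice right of it. Knockout mouse 3 and wild-type mouse 1 are above the mean (red) in 27 and 26 of 30 genes, and wild-type mouse 3 and knockout mouse 4 are below it (blue) in most.

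Other genes of the pathway were read from the same fit. Of 29 tested genes that also serve oxidation but are outside the 30, 0 passed in either direction, with 14 estimates above 0 and 15 below and a median of -0.019. The smallest p was 0.11, unadjusted in edgeR, for Cpt1c, followed by Acot8, Acsl4 and Abcd2. Of 17 regulators, 0 passed, and Rxrg, Nrip1, Rxrb and Esrra had the smallest p. Rxrg, a partner receptor of the PPARs, was at 32.6, 28.4, 32.4 and 32.0 CPM in knockout mice 1 to 4, against 31.5, 23.8, 22.2 and 24.9 CPM in wild-type mice 1 to 4, with an unadjusted p of 0.0395 in edgeR. Ppara was at 18.9 ± 8.18 CPM in knockout and 15.7 ± 3.34 CPM in wild type, and its coactivator Ppargc1a at 4.11 ± 3.02 CPM in knockout and 3.33 ± 1.23 CPM in wild type. Knockout mouse 2 raised both knockout means, with Ppara at 30.5 CPM and Ppargc1a at 8.58 CPM. In the other knockout mice Ppara was at 11.6 to 18.2 CPM, against 11.9 to 19.8 CPM in wild type. Ppargc1a was at 2.26 to 3.33 CPM in those mice, against 1.92 to 4.67 CPM in wild type.

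Upstream and downstream genes were tested in the same fit. Of 12 tested genes of fatty acid supply 0 passed, and the smallest p was that of Plin5, a lipid droplet protein that tethers droplets to mitochondria, at 18.6, 15.4, 26.6 and 20.8 CPM in knockout mice 1 to 4, against 18.5, 13.98, 11.3 and 8.36 CPM in wild-type mice 1 to 4. Its log2 fold change was 0.64 (SE 0.254), with an unadjusted p of 0.0327 in edgeR and an adjusted p of 1, and the groups overlapped. Of 17 genes of the citric acid cycle, which burns the acetyl-CoA, 0 passed, and 16 estimates lay above 0 with a median of 0.05, which was -0.022 without wild-type mouse 3; Sdhb, Dlst and Idh3g had the smallest p. Of 9 genes that control or form pyruvate dehydrogenase 0 passed, and Pdp1 and Pdk3 had the smallest p. Of 5 ketone body genes 0 passed.

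Start regions of 26 of the 30 genes were searched on both strands for a direct repeat of AGGTCA with 1 base between the copies, the element that PPAR and RXR bind, with up to 2 mismatches among its letters, in the window from 250 bases before to 50 after the RefSeq start. A match was found for 3 of the 26 genes, which had 27 windows, while 3.86% of all 32851 such windows held a match. The second share counts windows and not genes, and a gene can have more than 1 window. These 3 are shown as the matches of the search. Each line gives 30 bases on the gene's strand, with the match in capitals (RefSeq, GRCm38.p6: Echs1 chr7:140116483-140116512, minus; Etfa chr9:55512299-55512328, minus; Slc25a20 chr9:108662134-108662163, plus).
Echs1: gcccgctcAGGTCACGGGTCCaccccttaa
Etfa: gcacacccTTACCTTTGCCCTactcccaag
Slc25a20: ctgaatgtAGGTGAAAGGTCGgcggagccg
The match in Etfa is on the opposite strand. The log2 fold changes of these genes were 0.11 for Echs1, 0.041 for Etfa and 0.008 for Slc25a20, none of which passed. A match is a description of letters and does not show that a receptor binds there.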

How the data were processed

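The authors deposited, for each mouse, whole-number counts of reads by gene symbol. Tools listed in the submitters' processing notes are STAR 2.4.0g1, FastQC 0.11.2, Cufflinks, featureCounts and edgeR, with build mm10; the sources used here do not give their roles or the strand setting. Gene positions and exon lengths were read from the annotation that the authors deposited. Low-count genes were removed by filterByExpr (edgeR 4.0.16, R 4.3.3), libraries were scaled by TMM (factors 0.966 to 1.05), and knockout was tested over wild type with the robust quasi-likelihood F test, Benjamini-Hochberg adjusted over 14493 genes. The SE is the one implied by the F statistic. The common biological coefficient of variation was 0.301. Libraries of a genotype all differed by more than sampling noise (chi-square per degree of freedom at least 63). Replicates are separate mice. Levels per length used merged exon length; for Pex11a this was 879 bases, against 2241 in its GENCODE transcript. The test was also run on simulated counts, and the outcome of that check is not given here. DESeq2 1.42.0 and limma 3.58.1 (voom), other scalings and filters, a replicate block and left-out libraries were alternatives. The genes, lists and rules were chosen with earlier results of these data known. All 30 genes are named. Values in every mouse are given for the 6 genes of lowest p on each side of 0, the 4 most abundant per length, the trifunctional protein and thiolase pairs, Cpt1a, Pdk4, Pex11a and the 3 most variable; of each related list, up to 4 genes of lowest p could be named. The targeted gene is not reported here.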

Additional observations from a re-analysis of the deposited data

Results flagged for a closer look

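Within-genotype values were examined for a mouse far from the other 3 in 60 groups of 4 (30 genes in each genotype), and 2 groups held such a mouse, where chance alone gives about 3. Ech1 was at 845.4 CPM in knockout mouse 3 and at 597.5 to 632.7 CPM in the other knockout mice. Acadvl was at 246.6 CPM in wild-type mouse 3 whereas wild-type mice 1, 2 and 4 held 298.5 to 305.2 CPM.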

How the results depend on the processing

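Under the 17 alternatives 0 of the 30 genes passed an adjusted p of 0.05, and the smallest adjusted p was 0.882. The number of all genes past the threshold was 2, and it was 17 in DESeq2 and 0 with total counts, no low-count filter, the replicate block, voom, or wild-type mouse 3 and knockout mouse 2 left out together; leaving out any single mouse gave 0 to 0. The number of the 30 genes with an unadjusted p under 0.05 was 0 to 2 with a mouse left out. The number with an estimate above 0 was 20, ranged from 12 (without wild-type mouse 3) to 24 with a mouse left out, and was 13 without the pair. The median log2 fold change over the 30 genes was 0.033 and turned without knockout mouse 3 (-0.017), without wild-type mouse 3 (-0.033) and without the pair (-0.014), with a range of -0.033 to 0.127 with a mouse left out. The spiral median stayed above 0, at 0.081 to 0.224. The estimates of 11 genes kept their sign in every setting and those of 19 turned at least once, none of them past the threshold; the cause was not tested. Same-numbered mice did not deviate together (correlations 0.117, -0.0152, -0.32 and -0.0173, and no knockout mouse correlated best with its own number), so the replicate block is a pairing by number alone: it gave a median of 0.037 and 0 of 30 genes past the threshold.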
